A study of Xenopus tropicalis with 11 samples.

Results

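The regions described here were the 10-kb bins of the Xenopus tropicalis genome in which chromatin input gave unusually many reads, away from the centromeres. A bin was taken when its count was at least 2 times the median bin of the library in each of the 3 input libraries, and when its centre lay more than 0.5 Mb from the listed centromere position of its chromosome. The members were thus selected on measured input counts, which chose 4538 of the 144914 bins on chromosomes 1 to 10 (3.13%), from a table of 145051 bins. Another 71 bins were as high in the inputs but lay within 0.5 Mb of a centromere position and were left out.

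The libraries came from XTN-6 cells, a wild-type line of the NXR Nigerian strain derived from dissociated embryos at about stage NF 20. The labels name XTN-6 cells as the source and also give whole tadpole as the cell type, and counts of DNA cannot settle between them. Every library held mononucleosomes released by micrococcal nuclease from native chromatin. There were 3 input libraries with no antibody (Input 1, 2 and 3), 3 precipitated with an antibody to X. laevis Cenp-a (the centromeric variant of histone H3), 2 with an antibody to histone H3 (H3 2 and 3), 1 with an antibody to histone H4 (H4 1) and 2 with rabbit IgG (IgG 2 and 3). No source says that the replicates came from separate cultures. They are numbered in the labels and called technical replicates in the authors' reporting summary. The p-values therefore measure only the spread between these libraries. With 2 or 3 pairs of libraries in a test, that spread was estimated with information shared over all bins tested. A very small p-value thus does not measure how closely the pairs agree in that bin. Total counts ran from 4053600 in IgG 2, where the median bin held 24 counts, to 229872947 in Cenp-a 3, where it held 1371.

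Input chromatin is sequenced without selection, so its read depth mainly follows how many copies of a sequence the cells carry for each copy that the assembly holds, besides base composition, how well reads can be placed and how easily the nuclease releases the nucleosomes. Genes for ribosomal RNA (rRNA), transfer RNA (tRNA) and the small nuclear RNAs of the spliceosome (snRNA) lie in tandem arrays in Xenopus, and such arrays are easily shortened when a genome is assembled. Satellite repeats near chromosome ends behave in the same way. The rule asks only for depth, and no repeat annotation was used here.

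Throughout, the level of a bin is its count divided by the median bin of the same library over the 10 chromosomes. The input levels of the members are a description, since they chose them. Across the members the median level was 3.01 in Input 1, 2.79 in Input 2 and 2.81 in Input 3. The mean over the inputs was between 2 and 3 in 2527 members (55.7%), between 10 and 20 in 195, between 20 and 50 in 118 and at least 50 in 20. The inputs differed little within a member, with a median coefficient of variation of 6.50% and a 95th percentile of 17.8%. Input 1 was the highest of the 3 in 2955 members (65.1%).

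The limit cut through a dense part of the distribution. There were 547 bins whose lowest input level lay between 2 and 2.1, and 637 bins just outside, between 1.9 and 2. Just inside lay chr3:63464911-63474910, with levels of 2.22, 2.00 and 2.21 in Inputs 1 to 3. Just outside lay chr1:2580001-2590000, with 2.31, 2.13 and 2.00 (1.998 before rounding). Members at the limit and bins beyond it had nearly the same input levels.

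The libraries that the rule did not use gave high counts at the same bins. In IgG 3, 98.2% of the members reached 2 times the median bin, beside 3.69% of all chromosome bins. The share was 90.5% in IgG 2, 95.2% in H3 2 and 81.0% in H3 3. It was 82.2% in H4 1, and 81.0%, 85.7% and 79.6% in Cenp-a 1, 2 and 3. In all 8 libraries at once, 2957 members (65.2%) reached that level, as did 2.11% of all bins. Only 4 members fell below the median bin in any of these 8 libraries, beside 75.4% of all bins. High counts at these bins were therefore shared by input, antibody and IgG libraries.

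**Figure D1:**
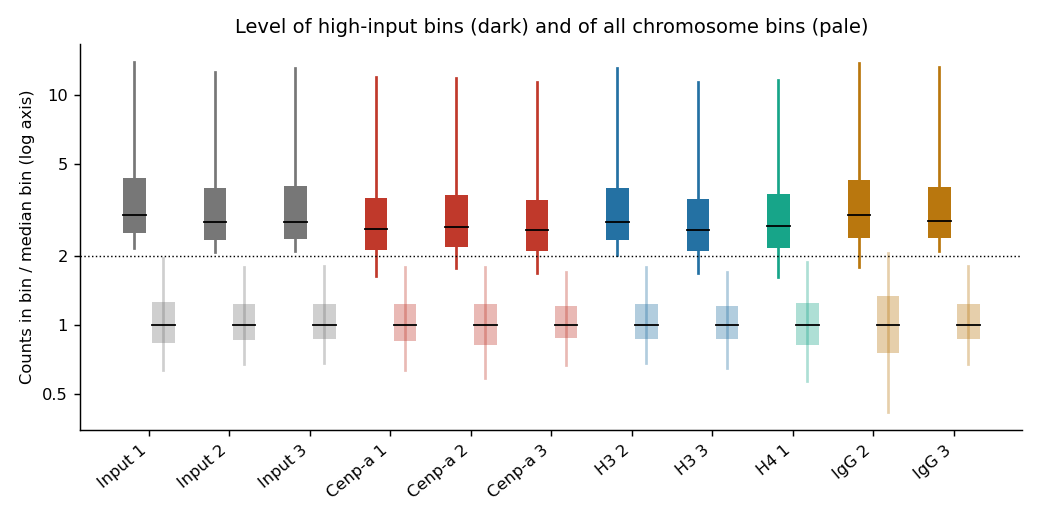
Level of the bins in each library, as counts divided by the median bin of that library (log axis); boxes span the middle 50% of bins, black lines mark medians and whiskers run from the 5th to the 95th percentile, with high-input bins dark and all chromosome bins pale. The medians of the high-input bins lie between 2.58 in Cenp-a 3 and 3.01 in Input 1, above the dotted line at 2 in all 11 libraries, although only the inputs were used to choose them.

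The 10 members with the highest mean input level were of a few kinds. The highest was chr5:470001-480000, 0.475 Mb from the start of the chromosome, at 156, 118 and 124 times the median bin in Inputs 1, 2 and 3. It reached 113, 114 and 106 in Cenp-a 1, 2 and 3. It reached 110.2 and 109.6 in H3 2 and 3, 105 in H4 1, 141 in IgG 2 and 132 in IgG 3. The annotation places 27 rRNA genes in it, and 39 in the bin before it, chr5:460001-470000, which had a mean of 83.4.

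Chromosome ends held 4 more of the 10, none with an annotated gene. The second was chr2:180875222-180885221, 0.145 Mb from the end, with 136, 107 and 117 in the inputs, 126 and 122 in the IgG libraries, 80.4, 93.3 and 80.7 in Cenp-a 1, 2 and 3, and 66.4 in H4 1. The third, chr2:181005222-181015221, lay 0.015 Mb from the same end at a mean input level of 106. The other 2 were chr5:163883749-163893748 (mean 76.1) and chr6:30001-40000 (mean 70.0). In each of these 4 bins the 3 Cenp-a libraries, H3 3 and H4 1 were all below every input.

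The remaining 4 lay inside chromosome arms. On chromosome 9, chr9:48663929-48673928 had a mean input level of 75.1 and between 68.2 and 85.6 in the 8 other libraries, so that inputs and precipitates overlapped. In chr9:55634420-55644419 the inputs gave 81.1, 68.2 and 68.4 and the IgG libraries 72.6 and 76.7, while Cenp-a gave 144, 83.8 and 107, H3 gave 87.3 and 101, and H4 gave 135. There the Cenp-a, H3 and H4 libraries were all above all inputs. On chromosome 8, chr8:16800983-16810982 overlapped the unnamed coding gene LOC101732242 and had a mean of 64.2, and chr8:13890983-13900982, with no annotated gene, had a mean of 62.4. In both, inputs, IgG and H3 2 were between 60.1 and 72.5 and Cenp-a 1, 2 and 3, H3 3 and H4 1 between 28.7 and 47.4.

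The members lay unevenly over the genome. Chromosomes 2, 4, 8 and 10 held 3369 of them (74.2%) on 36.9% of the bins. The share of a chromosome's bins that were members was 14.8% on chromosome 10, 6.67% on chromosome 8, 5.17% on chromosome 2 and 4.37% on chromosome 4, against 0.921% on chromosome 7 and 0.932% on chromosome 6. Within 1 Mb of a chromosome end, 10.8% of the bins were members (215 of 2000), and 5.55% between 1 and 5 Mb. Beyond 30 Mb from both ends the share was 1.52%. Of all members 71.4% lay within 30 Mb of an end, where 40.9% of the bins lie. All of chromosome 10, with its 778 members, lies within that distance.

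Many members did not stand out from their surroundings, so the set is called high-input bins here and not repeats. Each member was compared with the median of the 101 bins centred on it, a division made after the values were seen. By this measure 1511 members (33.3%) were at least 2 times their local median in all 3 inputs, here called locally high. Another 2546 (56.1%) were not, and lay where the local median itself was at least 1.5 times that of the library in each input, here called broad. The remaining 481 fell under neither head. The locally high members had a median mean input level of 4.68 and the broad ones 2.73. Every one of the 10 highest bins was locally high. Broad members numbered 795 on chromosome 2, 692 on chromosome 10, 614 on chromosome 8 and 349 on chromosome 4, and 0 on chromosomes 5, 6, 7 and 9. Locally high members were more even, at 114 to 230 on chromosomes 1 to 9 and 66 on chromosome 10, the shortest. They too were densest at the ends, where 124 lay within 1 Mb. Within 30 Mb of an end lay 52.4% of them, beside 71.4% of all members and 40.9% of all bins.

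**Figure D2:**
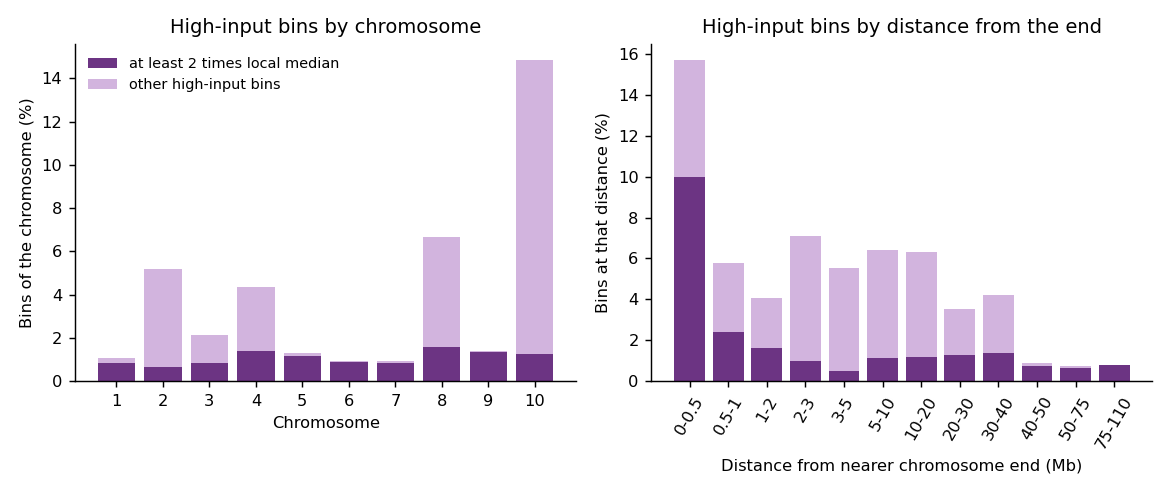
Share of bins that were high in the inputs, by chromosome (left) and by distance from the nearer chromosome end in Mb (right), with bins at least 2 times their local median dark and the others pale. Chromosome 10 reaches 14.8% and chromosome 8 reaches 6.67%, mostly with bins that are not locally high, while the share of locally high bins is highest next to the ends.

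Broad members lie in wide stretches of raised input by their definition, so the extent of these stretches is only a description. Of 1448 windows of 1 Mb, 71 had a median level of at least 1.5 in all 3 inputs. These held 2507 members (55.2%), locally high ones included. Adjacent windows of this kind were joined. Some held few members, as from 138 to 141 Mb on chromosome 3, with 16 in 300 bins. From 171 to 180 Mb on chromosome 2, 610 of 900 bins were members and 3 of them were locally high. The medians of its windows lay between 1.53 and 3.61 in the inputs, 1.31 and 2.96 in Cenp-a, 1.31 and 3.14 in H3, 1.46 and 2.96 in H4, and 1.58 and 3.46 in IgG, and the window before it stood at 1.04 in the inputs. From 142 to 143 Mb on the same chromosome 94 of 100 bins were members, with window medians from 2.58 in IgG 2 to 2.91 in H4 1, and 1.34 and 0.983 in the windows on either side. From 13 to 21 Mb on chromosome 8, 502 of 800 bins were members, 87 of them locally high, and window medians reached 8.35 in the inputs and 7.47 in Cenp-a. On chromosome 10 the windows from 32 to 46 Mb held 535 members in 1400 bins, with input medians from 1.54 to 3.03, and the window from 29 to 30 Mb held 87 in 100 bins. Whole chromosomes also differed: the median level over all bins of chromosome 3 was 1.33 to 1.37 across the 11 libraries, that of chromosome 8 was 1.29 to 1.34, and that of chromosome 10 was 1.13 to 1.30, against 0.890 to 1.00 on the other 7. No cause of these steps was tested.

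Adjacent members were joined into 1606 runs, of which 946 were single bins. The 80 runs of at least 10 bins held 1644 members (36.2%). The longest run, chr10:32552456-33842455, was 129 bins or 1290 kb. Its median level was 3.14, 3.08 and 3.09 in the inputs, 3.02, 3.06 and 2.99 in Cenp-a, 3.12 and 2.99 in H3, 2.94 in H4, and 3.13 and 3.09 in IgG. The 40 bins flanking it had a median of 1.66. It held 14 coding genes, among them rpl38 (a protein of the large ribosomal subunit), ccdc40 and dnai2 (needed for motile cilia) and mc3r (a melanocortin receptor).

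The next 4 runs held 0 locally high bins, beside 12 in the longest run, and lay between higher flanks. A run of 62 bins, chr10:29392456-30012455, had a median level of 2.60, hardly above the 2.51 of its flanks. It held kcnj2 and kcnj16, which encode inward rectifier potassium channels. A run of 46 bins, chr10:31922456-32382455, had a median of 2.90, beside 2.33 in its flanks, and held sdk2, a cell adhesion gene, and cdc42ep4. In it H4 1 stood at 4.03, above the 2.81 to 3.301 of the other libraries. On chromosome 2 a run of 50 bins, chr2:177264731-177764730, had a median of 3.84, beside 2.53 in its flanks. The run overlapped 16 coding genes, among them nup98 (a nucleoporin), stim1 (the calcium sensor of the endoplasmic reticulum), taf10 (a subunit of TFIID), rhog and the odorant receptor gene or52k1. There Cenp-a stood at 3.19, 3.15 and 3.03 and H3 3 at 3.07, below the 3.58 to 4.19 of the inputs. A run of 43 bins, chr2:178414731-178844730, had a median of 3.67, beside 3.00 in its flanks, and held numa1, a spindle pole organiser, trpc2 and lrif1.

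Runs of a different kind had the highest mean level among those of 10 bins or more. The highest, chr9:55524420-55824419, was 30 bins long, had a mean input level of 35.9 and stood between flanks with a median of 1.01. It lay 35.4 Mb from the nearer end and overlapped no annotated gene. Its median level was 38.2, 37.3 and 36.6 in the inputs and 37.7 and 40.8 in IgG, and higher in all 6 other libraries: 56.1, 44.7 and 50.9 in Cenp-a, 48.4 and 48.1 in H3 and 52.6 in H4. The runs at the end of chromosome 5 (18 bins, mean 34.5), at the end of chromosome 2 (18 bins, mean 33.9) and at the start of chromosome 6 (11 bins, mean 31.5) differed from it in that all Cenp-a libraries lay below all inputs. At the end of chromosome 5 the medians were 35.6, 31.9 and 32.6 in the inputs and 34.96 and 35.6 in IgG, beside 23.8, 27.4 and 25.4 in Cenp-a, 25.1 in H3 3 and 21.7 in H4, with H3 2 at 35.8. The fifth, chr5:65715402-65835401 (12 bins, mean 23.8), overlapped no gene and stood at 18.9 to 20.1 in every library but H4 1, at 15.5.

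**Figure D3:**
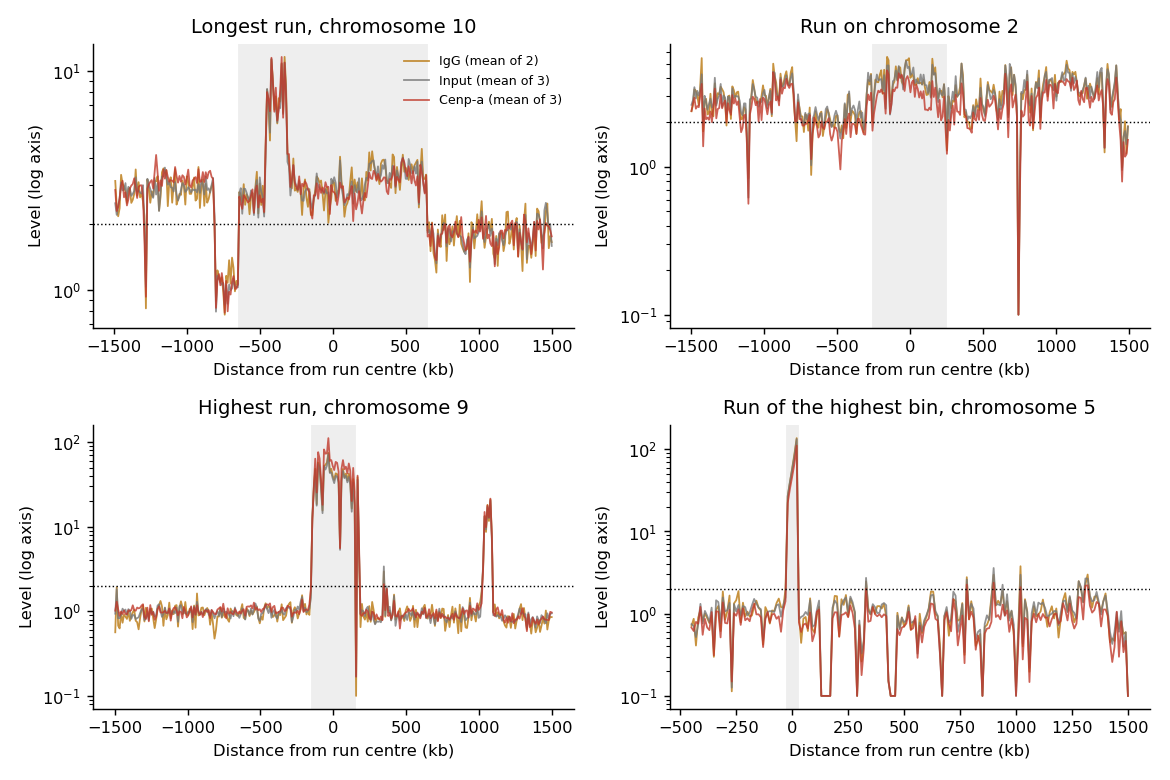
Level of 10-kb bins (log axis) against distance from the centre of 4 runs of high-input bins, whose extent is shaded, with the mean of the 3 inputs in grey, of the 3 Cenp-a libraries in red and of the 2 IgG libraries in brown; levels under 0.1 are drawn at 0.1 and the dotted line marks 2. The 1290-kb run on chromosome 10 has a median of 3.11 beside 1.66 in its flanks and the 500-kb run on chromosome 2 has 3.84 beside 2.53, whereas the run on chromosome 9 and the rRNA genes on chromosome 5 rise from about 1 to a mean of 35.9 and a bin of 133.

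Among the gene types, those for rRNA, snRNA and tRNA had the largest shares of their genes in the members, although coding genes were the most numerous there. Of the 28773 genes on the chromosomes, 3604 (12.5%) overlapped a member. Of the rRNA genes 341 of 463 (73.7%) did, of the snRNA genes 355 of 614 (57.8%) and of the tRNA genes 1174 of 2366 (49.6%). The share was 18.6% of pseudogenes, 12.6% of long noncoding RNA genes, 12.3% of small nucleolar RNA genes, 5.89% of coding genes (1281 of 21749) and 3.74% of microRNA genes. Genes of an array are neighbours and share bins, so these shares do not count independent places: the rRNA genes fell in 32 member bins, the snRNA genes in 39 and the tRNA genes in 106. Bins with any annotated gene made up 61.7% of members and 62.9% of all bins, and bins with a coding gene 50.6% and 60.2%.

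Nearly all of these RNA genes lay in a few arrays, joined where genes of a type in members were at most 200 kb apart. For rRNA, 7 arrays of 10 genes or more held 337 genes. The largest, chr5:434341-476958, held 161 genes in 5 members, 159 of them annotated at 119 bp, about the length of 5S rRNA, although the annotation used here names no rRNA type. The mean level over its 5 bins was 78.3, 62.1 and 64.2 in the inputs, 73.4 and 66.5 in IgG, 56.2, 58.5 and 53.3 in Cenp-a, 57.5 and 55.1 in H3 and 53.8 in H4. All Cenp-a, H3 and H4 libraries were thus below all inputs and both IgG libraries. Smaller arrays mostly of the same gene length lay near ends, on chromosome 2 at 0.715 Mb and 1.33 Mb from the ends (27 and 56 genes), and on chromosomes 8, 9 and 10 at 0.175, 0.075 and 0.005 Mb (22, 17 and 22 genes). Their mean levels in Input 3 were 4.82, 5.06, 9.35, 18.4 and 14.99. A further array of 62 such genes, chr6:152022778-152070393, held no member, with bins from 1.36 to 2.23. The chromosome 10 array is annotated with 51 genes, although both of its 2 bins were members. Its genes past the last bin of the chromosome were counted as not overlapping a member.

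One rRNA array differed between replicates. In chr7:76756741-76980136, 32 genes overlapped members and came in 3 lengths, 148 to 156 bp, 1826 to 1827 bp and 4122 to 4174 bp, which are about those of 5.8S, 18S and 28S rRNA. Over the 16 members among the 25 bins that cover this array and its edges, the median level was 9.91 in Input 1 but 4.69 and 4.49 in Inputs 2 and 3. It was 16.1 in Cenp-a 1, 3.79 in Cenp-a 2 and 4.08 in Cenp-a 3. It was 12.4 in H4 1, 3.73 and 4.03 in the H3 libraries, and 3.38 and 3.78 in IgG. The bins of this stretch that were not members had medians of 3.88, 6.49 and 4.09 in Input 1, Cenp-a 1 and H4 1, and 0.829 to 1.26 in the other 8 libraries. The medians of all 3 libraries of replicate 1 were therefore above those of all 8 of replicates 2 and 3, whatever the antibody.

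In 107 members (2.36%, beside 0.978% of all bins) all 3 replicate 1 libraries were above the other 8. A wide gap was rare outside this array. In 15 of the 107 the lowest replicate 1 library was at least 1.5 times the highest of the other 8, beside 0.0283% of all bins. Of these 15 members 14 lay in this array. The last was chr8:118229821-118239820, at 11.3, 20.8 and 8.24 in Input 1, Cenp-a 1 and H4 1, and at 2.01 to 2.69 in the others. It lay within an array of snRNA genes. Because replicate 1 had no IgG library, these bins enter the tests against IgG only through replicates 2 and 3.

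The tRNA genes of the members lay mostly on chromosome 3. Between chr3:135270949 and 135754958, 334 of 342 annotated tRNA genes overlapped 27 members, of which 21 were locally high, with a mean input level up to 14.8. Their commonest symbols were trnag-ucc (39 genes), trnam-cau and trnay-gua (37 each) and trnae-uuc (35), so the array held genes for glycine, methionine, tyrosine and glutamate tRNAs. The array at chr3:144812067-145222173 (240 of 311 genes, 22 members) was led by trnas-gcu (38) and trnar-acg (30). The limits of these arrays were set by genes in members, which favours a high overlap. Joined over all annotated tRNA genes, the first held 470 genes, with 334 genes in members and 27 of 52 bins members. The second then lay in a stretch of 467 genes, with 286 genes in members and 26 of 68 bins members. On chromosome 2 an array of 104 genes, chr2:74428166-74475571, was made of 67 trnag-gcc and 35 trnak-cuu genes with 2 others. Its mean level over 5 bins was 5.86, 4.55 and 4.66 in the inputs, 5.38, 5.23 and 5.02 in Cenp-a, 4.77 and 4.60 in H3, 6.39 in H4 and 5.44 and 4.95 in IgG, a range in which the groups overlap. The highest tRNA bins lay in chr8:139580726-139801665, led by trnam-cau (23 of 82 genes), where 5 members averaged 13.8, 10.8 and 10.9 in the inputs and 9.85 to 12.2 in the other libraries.

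A dense tRNA array was not always high. Of the bins with 20 or more tRNA genes 18 of 20 were members, of those with 10 to 19 genes 43 of 62, and of those with 1 to 4 genes 24 of 237, with median input levels of 7.11, 3.49 and 1.29. Yet of 20 tRNA arrays with at least 20 annotated genes, 8 held no member, with 379 genes between them. At chr5:127542922-127607455, 83 of 86 genes were trnag-ccc and the 7 bins had levels between 0.884 and 1.198. At chr6:142694207-142751379, 73 of 79 were trnav-uac and the bins had levels between 0.869 and 1.19. By symbol, 0 of 87 genes each for trnag-ccc, trnav-uac, trnac-gca and trnar-ucu overlapped a member, compared with 67 of 86 for trnag-gcc, 68 of 86 for trnam-cau and 66 of 84 for trnak-cuu.

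All 355 snRNA genes in members lay in 5 arrays. The largest, chr8:117984770-118515271, held 182 of 244 genes in 27 members, with 144 genes of 191 bp. Arrays on chromosome 2 (82 genes, 64 of 141 bp) and chromosome 4 (61 genes, 59 of 115 bp) came next. The highest was the smallest, chr1:191412691-191422659, where 13 genes of 164 bp filled 2 members at 25.5, 18.8 and 19.3 in the inputs, 19.5, 16.67 and 16.8 in Cenp-a, 18.3 and 16.6 in H3, 23.5 in H4 and 21.7 and 19.7 in IgG. Which snRNA each array encodes is not given in the annotation used here. Not all dense snRNA bins were high: of those with 20 or more snRNA genes, 3 of 6 were members. Joined over all annotated genes, the chromosome 2 array held 184 genes in 8 bins, of which 3 were members. A further array of 37 snRNA genes, chr7:130084698-130135913, held no member, with bins from 0.940 to 1.66. An array of 27 small nucleolar RNA genes of 215 bp on chromosome 2 filled 2 members with mean input levels of 2.20 and 2.73.

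**Figure D4:**
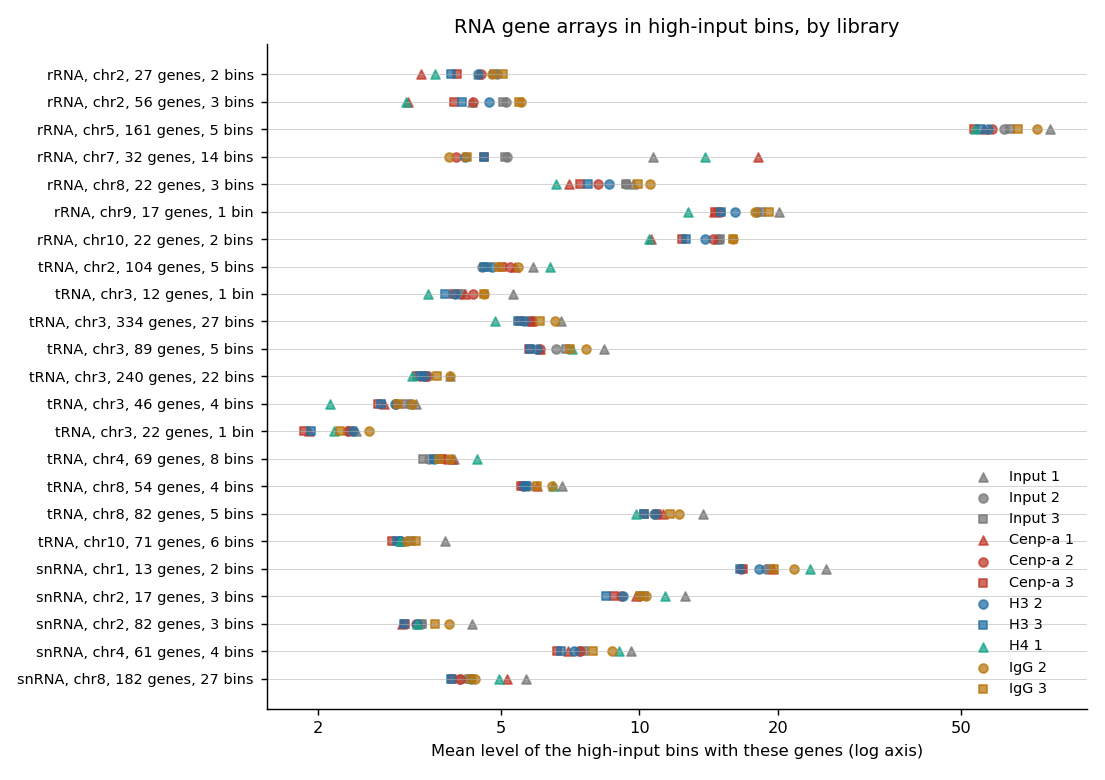
Mean level (counts divided by the median bin, log axis) of the high-input bins that overlap each array of rRNA, tRNA or snRNA genes, 1 row an array, with a point for each library coloured by antibody and shaped by replicate. The 161-gene rRNA array on chromosome 5 stands at 53.3 to 78.3, and on chromosome 7 the 3 replicate 1 libraries (triangles) stand at 10.7 to 18.1 while the other 8 stand at 3.85 to 5.15.

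Of the microRNA genes 7 of 187 overlapped members. The highest bin, chr3:146262276-146272275, held mir427-1 and mir427-3 at a mean input level of 7.83 and 5.25 to 8.02 in the other libraries. The mir427 family is expressed at the start of zygotic transcription in Xenopus and helps to clear maternal messenger RNAs. The gene mir428b lay in a member at 3.91 on chromosome 8, and mir26-2 in a member at 3.86 on chromosome 9. Other families were judged by symbol, beside the 5.89% of all coding genes that overlapped members. Of 43 named odorant, vomeronasal and taste receptor genes 7 (16.3%) overlapped members, a larger share than that of coding genes. None of these members were locally high, and or51e1 and or4a5 lay in chromosome 2 bins at 4.11 and 3.40. Of 201 named zinc finger genes 8 (3.98%) did, led by znf347 at a level of 4.86. Of 28 histone genes only h1-3 (3.57%) did, at 2.89, beside the tRNA genes of chromosome 3. Of 21 protocadherin and 45 keratin genes 0 did, nor any of 5 MHC and 5 NLR or GTPase IMAP genes. Of 9 named transposon-derived genes only tigd3 (11.1%) did, at 2.22. Coding genes known only by a LOC number cannot be placed in families here, and 553 of 6157 overlapped members, beside 728 of 15592 genes with a name.

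Next, precipitated chromatin was compared in the members. The share of chromosome counts that fell in the members was 13.6%, 12.5% and 12.8% in Inputs 1 to 3 (mean 13.0% ± 0.574, SD, n = 3). It was 11.7%, 11.996% and 11.5% in Cenp-a 1 to 3 (11.7% ± 0.256, SD, n = 3), 12.8% and 11.7% in H3 2 and 3, 11.8% in H4 1 and 13.2% and 13.0% in IgG 2 and 3. Cenp-a was lower than the H3 or H4 library of its replicate in 3 of 3 pairs, with a mean difference of -0.364 percentage points (-0.0475, -0.830 and -0.215). The largest difference was that of replicate 2, whose H3 library, at 12.8%, stood near its input, at 12.5%. By the exact sign-flip test over these pairs, two-sided p = 0.25, the smallest that 3 pairs can give, so no difference could be shown. Against IgG the Cenp-a share was lower in both pairs, by 1.24 and 1.47 percentage points, for which 2 pairs allow no useful test.

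Divided by the input of the same replicate, as a description, the members had median ratios of 0.851, 0.947 and 0.892 in Cenp-a 1 to 3, where all bins had 1.01, 0.987 and 1.00. The ratio was 0.879 in H4 1, 0.990 and 0.916 in H3 2 and 3, and 1.04 and 1.00 in IgG 2 and 3. Locally high members were lower than broad ones in Cenp-a, at 0.776, 0.930 and 0.846 beside 0.885, 0.963 and 0.915, and likewise in H4 1 (0.776 beside 0.929), H3 2 (0.984 beside 0.994) and H3 3 (0.874 beside 0.942). Since the inputs chose the members, a chance excess of an input lowers such ratios by construction. The comparisons that follow use no input, but those with IgG may not be free of this choice. From 5% to 95% of the members, the ratio to input ran from 0.894 to 1.11 in IgG 3. In Cenp-a 3 it ran from 0.657 to 1.14, and in H3 3 from 0.679 to 1.15. In replicate 2 it ran from 0.741 to 1.37 in IgG, 0.759 to 1.17 in Cenp-a and 0.851 to 1.18 in H3. Thus the range of IgG was narrower than that of Cenp-a or H3 in replicate 3 but not in replicate 2. Depth differed, with a median member count of 72 in IgG 2, 218 in Cenp-a 2 and 1069 in H3 2. In replicate 3 it was 1797.5, 3534 and 711. Low counts widen such a range, so the values of IgG 2 cannot show how closely IgG followed the input. Whether the choice by high input also favoured bins that are high in IgG was not tested.

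Counts in Cenp-a and H3 or H4 libraries of the same replicate were compared with the edgeR quasi-likelihood test over all bins, and calls required an adjusted p under 0.05 (Benjamini-Hochberg) together with a difference of 1.5-fold or more. Of the 4538 members 3 were called higher in Cenp-a and 0 lower, while over all 144689 bins tested 0.0878% were called higher and 0.000691% lower. Before adjustment, 33 members (0.727%, beside 2.05% of all bins) had p under 0.05 and were higher, and 296 (6.52%, beside 3.33%) were lower, and DESeq2 called 3 higher and 0 lower. Without replicate 3, 5 members were called lower. The median log2 fold change was -0.05 in the members and -0.02 over all bins. In the members 5% to 95% of the values lay between -0.21 and 0.11, and over all bins between -0.22 and 0.20. The members held more counts than other bins (a median of 831 beside 317 in Cenp-a 1), so that smaller differences could be called in them.

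The 3 bins called higher were all on chromosome 4. A pair of adjacent bins, chr4:17711474-17721473 and chr4:17721474-17731473, stood far above the rest. The first had levels of 13.3, 10.3 and 13.4 in Cenp-a 1, 2 and 3. It had 2.83 and 3.37 in H3 2 and 3, 2.93 in H4, 2.29 and 2.75 in IgG and 2.08, 2.86 and 2.46 in the inputs. The second had 14.9, 9.34 and 12.7 in Cenp-a and at most 3.23 in any other library. Every Cenp-a library was thus above every other library, with no overlap. The log2 fold change against H3 and H4 was 2.00 ± 0.0947 (SE, adjusted p = 1.05e-29) in the first and 2.03 ± 0.0954 (adjusted p = 7.96e-30) in the second, by the edgeR test. Against IgG it was 2.26 ± 0.118 (adjusted p = 3.82e-79) in the first, and the second was 4.51-fold higher (adjusted p = 2.55e-71).

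The pair lay 28.9 Mb from the listed centromere position of chromosome 4 and inside the limits of the coding gene LOC108647437 (17698799 to 17758651). Its edges were sharp. In the 11 bins around it Cenp-a levels were between 0.290 and 1.65 and input levels between 0.458 and 1.66. The pair counted as high-input only narrowly, since Input 1 gave 2.08 and 2.20, and neither bin was 2 times its local median in every input. The third bin, chr4:36462947-36472946, had 10.8, 6.80 and 7.26 in Cenp-a, 4.13 and 4.36 in H3, 8.26 in H4, 3.71 and 3.35 in IgG and 3.56, 3.34 and 3.41 in the inputs. Its log2 fold change was 0.60 ± 0.0930 (adjusted p = 1.37e-05). H4 1 was above Cenp-a 2 and 3 there, so the groups overlapped, and only the pairing by replicate separates them. The bin held LOC100486597, a long noncoding RNA gene, and small nucleolar RNA genes.

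Against IgG, with the libraries of replicates 2 and 3, 8 members were called higher in Cenp-a and 130 lower (2.86% of members). Over all 144741 bins tested, 0.158% were called higher and 0.178% lower, so members made up 130 of the 258 bins called lower. Here too the members held more counts, with a median of 72 in IgG 2 beside 24 over all bins. Smaller differences could thus be called in them. The median log2 fold change was -0.15 in the members and 0.01 over all bins, and 3469 members were below 0 and 1069 above. In both replicates the members' median was lower than that of all bins (-0.13 beside 0.02 in replicate 2, -0.17 beside 0.01 in replicate 3). The count of 130 fell to 62 with no replicate block. A fit over all precipitated libraries, without the block and with Cenp-a 1 added, called 119. Without Cenp-a 1 that fit compared the same Cenp-a and IgG libraries as the main test, and it called 13. The count thus depended on the model as well as on the libraries. This fit called 16 without Cenp-a 3 and 254 without Cenp-a 2. Its median log2 fold change in the members was -0.14 without IgG 2 and -0.18 without IgG 3. None of the 130 reached 2-fold.

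Of these 130 members 84 were locally high and 24 broad. They lay on all 10 chromosomes, with 28 on chromosome 8 and 20 on chromosome 1, and 18 lay within 1 Mb of an end. Their log2 fold changes ran from -0.98 to -0.58. The lowest was chr1:28581965-28591964, with no annotated gene, at 1.60, 1.98 and 1.53 in Cenp-a 1, 2 and 3, beside 3.83 and 3.10 in IgG and 3.87, 2.66 and 2.84 in the inputs. Its log2 fold change was -0.98 ± 0.148 (adjusted p = 4.21e-08, edgeR). It was followed by chr7:28791965-28801964, within cnnm2, a gene of magnesium transport, at -0.90, by chr5:70445893-70455892 at -0.85 and by chr4:5600001-5610000 at -0.83. The fifth, chr1:31682456-31692455, was the best measured, with 12.9, 16.2 and 11.9 in Cenp-a, 17.9 and 12.3 in H3, 15.8 in H4, 25.5 and 23.4 in IgG and 33.1, 21.9 and 22.6 in the inputs. It had a log2 fold change of -0.81 ± 0.0880 (adjusted p = 6.27e-17). In each of these 5 bins every Cenp-a library was below both IgG libraries, and so were H4 1 and both H3 libraries.

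The distance from a chromosome end went with this comparison in members and other bins alike. Within 1 Mb of an end the median log2 fold change of Cenp-a against IgG was -0.38 in the members and -0.31 in all bins, and between 1 and 5 Mb -0.28 and -0.23. Beyond 30 Mb it was -0.09 and 0.07. Whether members differ from other bins at the same distance for any other reason was not tested. Of the 10 highest members 8 had adjusted p-values under 0.05 and lower Cenp-a counts, at log2 fold changes from -0.62 (chr8:13890983-13900982) to -0.30 (chr5:470001-480000), and only the first of these was past 1.5-fold. The bin of the chromosome 9 run, chr9:55634420-55644419, was at 0.37 ± 0.0740 (adjusted p = 0.000359), also short of 1.5-fold. No bin of the RNA gene arrays was called in any of the 3 tests. Their medians against IgG were between -0.42 and 0.10, with -0.30 for the chromosome 5 rRNA array and 0.10 for that of chromosome 7.

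Besides the 3 bins on chromosome 4, 5 members were called higher than IgG. In chr2:170684240-170694239, at pcf11 (a factor of messenger RNA 3' end formation), Cenp-a gave 4.42, 3.79 and 3.67 and IgG 1.25 and 2.40, with H3 at 2.61 and 3.16 and H4 at 3.60. Its log2 fold change was 0.88 ± 0.145 (adjusted p = 1.45e-06). The IgG 2 level of this bin rested on 30 counts, and Cenp-a was 3.10 times IgG in replicate 2 but 1.54 times in replicate 3. In chr4:37932947-37942946, at rnaseh2c (a subunit of ribonuclease H2) and a group of tRNA genes, Cenp-a gave 3.21, 3.45 and 3.79 and IgG 2.00 and 2.21, a log2 fold change of 0.80 ± 0.144 (adjusted p = 2.76e-05). H4 1 was at 3.69 there, within the range of Cenp-a.

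H3 against IgG gave few calls. Of the members 2 were called higher and 7 lower, while 0.00138% and 0.00622% of the 144710 bins tested were, or 2 and 9 bins in all. The median log2 fold change was -0.11 in the members and 0.02 over all bins. It differed between replicates, at -0.05 in the members beside 0.03 over all bins in replicate 2, and -0.13 beside 0.02 in replicate 3. In the fit over all precipitated libraries the members' median was -0.04 without H3 3 and -0.14 without H3 2. The authors' reporting summary states that H3 2 and IgG 3 yielded no broad peaks in their peak calling. The 2 called higher were chr7:88187366-88197365 within ptpn11b, a gene for an SH2-domain tyrosine phosphatase, at 4.72 and 6.39 in H3 and 2.29 and 3.86 in IgG (0.86 ± 0.148, adjusted p = 0.00107, edgeR), and chr1:97457857-97467856 at ubxn8 and ppp2cb (0.76 ± 0.148, adjusted p = 0.00747). The lowest were chr7:28791965-28801964 (-0.86) and chr1:28581965-28591964 (-0.82), both also among the lowest for Cenp-a, a comparison that shares the IgG libraries. All 9 were locally high. No member was called with no replicate block, and DESeq2 called 34 lower. The fit over all precipitated libraries without the block, in which single libraries were left out, called 0 in each direction with every library in and at most 1 with a library left out.

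**Figure D5:**
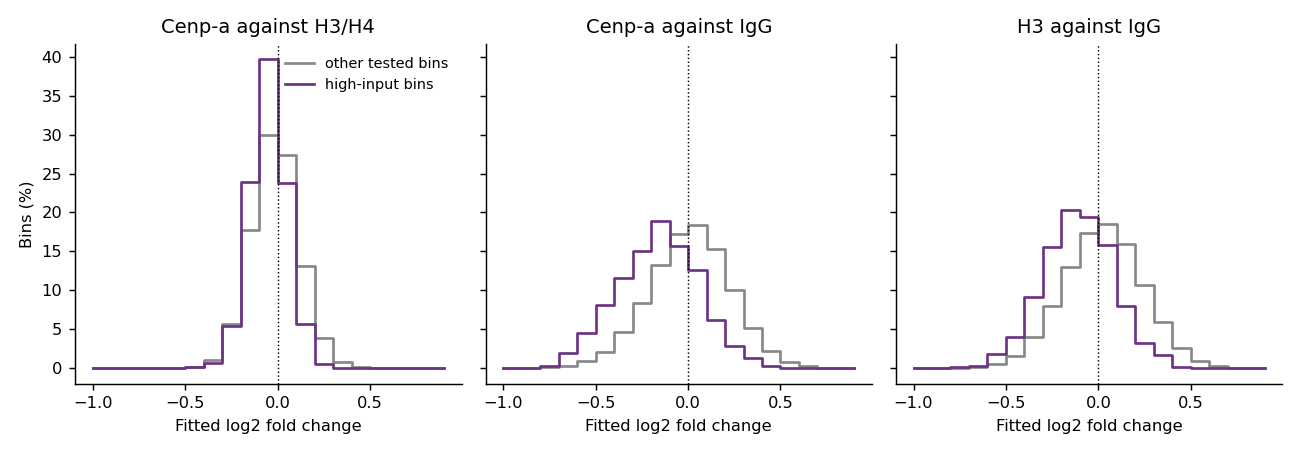
Distribution of the fitted log2 fold change in the 3 comparisons (horizontal axis, steps of 0.1; values beyond 1 in either direction are not drawn), as the share of high-input bins (purple) and of the other tested bins (grey) in each step. The medians of the high-input bins lie to the left, at -0.05, -0.15 and -0.11 beside -0.02, 0.01 and 0.02 over all tested bins. For Cenp-a against H3/H4 the 5th percentiles are alike, at -0.21 and -0.22.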

How the data were processed

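The authors deposited raw counts of reads per 10-kb bin: paired reads were trimmed (Trimmomatic 0.39), mapped to the unmasked genome (minimap2 2.17-r941), sorted (SAMtools 1.9) and counted at any mapping quality (deepTools 3.3.0), so reads with several equal placements were kept and values of near-identical copies are uncertain between them. Members, gene families, arrays and stretches were chosen with earlier results of these data known. Levels are counts over the median bin. Tests used edgeR 4.0.16 (R 4.3.3): bins with at least 10 counts in 50% of libraries, library size as the chromosome total, replicate number as a block, robust quasi-likelihood F-test, Benjamini-Hochberg adjustment over all bins. All 4538 members passed. The SE given with a log2 fold change is that change, without its sign, divided by the square root of its F statistic. It is not a spread of replicate values. Libraries were paired by number. Same-numbered Cenp-a and H3/H4 deviations from the mean of their group correlated at 0.221, 0.186 and 0.161, and different numbers at -0.185 to -0.0241. Such deviations cancel within a group, so the negative values follow in part from the positive ones. Replicate 1 also differs from the others in its antibody, H4 in place of H3. DESeq2 1.42.0 was the alternative. Gene limits are RefSeq's, assembly UCB_Xtro_10.0; the methods name version 10 of the genome, and on every chromosome the last bin ended within 182731 bp of the last gene. No genome sequence was used here, so no sequence is printed. Named bins were the 10 highest, the 5 longest runs, the 5 called most strongly each way in each test and those at the limit; the 5 highest runs of at least 10 bins and single arrays were added after their values were seen.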

Additional observations from a re-analysis of the deposited data

Results flagged for a closer look

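Members and their levels were taken only from the chromosomes, while scaffold bins that passed the count filter did enter the tests and their adjustment. Of the 137 bins on unplaced scaffolds, 6 (on 4 scaffolds) were at least 2 times the chromosome median in all 3 inputs, with mean input levels from 2.19 to 20.8 and at least 529 counts in any input, far above the 3 counts that a count of 0 allows. In 4 of the 6 bins all 8 other libraries also reached 2 times their median.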

How the results depend on the processing

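With members at 3 times the input median there were 1718 bins in 684 runs, at 1.5 times 11226 in 4672, and at 2 times the local median (chosen after seeing the data) 1511, 13.0% of them within 5 Mb of an end. Joining members up to 50 kb apart gave 896 runs. At these 3 limits in turn, the share of tRNA genes was 37.1%, 61.7% and 37.2%, of snRNA genes 38.4%, 68.2% and 39.4%, and of coding genes 1.94%, 17.5% and 1.77%. For rRNA genes it was 79.7% at 1.5 times and 66.5% at the local limit. A level of 1.5 was reached in all 8 other libraries by 93.7% of members.

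For Cenp-a against H3/H4, members called higher numbered 1, 7 and 0 at these limits, and 2 were called lower with no fold minimum. Leaving out a replicate gave 0 to 5 lower. The median of -0.05 became -0.0353 with TMM factors and -0.0356 with DESeq2. For Cenp-a against IgG, members called higher numbered 1, 14 and 2 at the limits, 28 with no fold minimum and 3 at 2-fold. Those called lower numbered 55 at 3 times, 84 at the local limit, 382 with no fold minimum, 0 at 2-fold and 62 with no replicate block, and the median was -0.18 at 3 times and -0.23 at the local limit. In the pooled fit without the block, which called 11 higher and 119 lower, leaving out a library gave 5 to 17 and 13 to 254. For H3 against IgG, 0 members were called higher at 3 times and at 2-fold, and 4 and 0 lower. With no replicate block 0 and 0 were called, as with the spread pooled over all precipitated libraries (chosen after seeing the data). DESeq2 called 34 lower. In that pooled fit, whose median was -0.09, leaving out a library gave 0 to 1 in each direction, with medians of -0.14 to -0.0373. The cause of these differences was not tested. In IgG 2 the median bin held 24 counts, which limits both comparisons with IgG.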
